A study of Mus musculus with 3 samples.

Results

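The class 3 semaphorins, their neuropilin co-receptors and the plexins through which they signal were taken as all noncontrol probes named Sema3a, Sema3c, Sema3e, Sema3f, Nrp1, Nrp2, Plxna1, Plxna2 or Plxnd1, which gave 14 probes of 9 genes, out of 39429 distinct probes under 30199 names. The cells were RM1, a murine line of prostate cancer, in a pair of transfected lines. RM1-MXRA7 had received MXRA7, whose name stands for matrix-remodelling associated, and RM1-VE, the control, the vehicle vector alone. Both lines were kept under G418 and harvested on day 2, in exponential growth, and their RNA was hybridised together on 3 Agilent 2-colour arrays, with RM1-MXRA7 in Cy3 and RM1-VE in Cy5 each time. The labels do not say which promoter drove MXRA7, whether a line was a single clone, or whether the replicates were separate cultures, so p-values measure only the spread between these arrays.

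Class 3 semaphorins are secreted guidance proteins, first known for repelling growing axons and also known as regulators of blood vessel growth and tumour cell migration. Most of them bind a neuropilin, which has a short intracellular tail and needs a plexin as signalling partner. The plexin acts on small GTPases of the Ras and Rap families, and collapsin response mediator proteins and MICAL enzymes carry the signal on to microtubules and actin. Neuropilins also bind vascular endothelial growth factors, so semaphorins and these growth factors share a receptor.

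The values rest on single 60-base probes, and the last 30 bases of those that passed the tests, with 1 that is named against its position, are printed here to show what was hybridised. Capitals mark the polyadenylation hexamer AATAAA or, in the Plxna2 probe, a repeat.
Sema3a, chr5:13602462-13602521, plus strand: gtaacgatattgctgctgtaaattattcct
Sema3c, chr5:17235981-17236040, plus strand: ttaccacatgagaatttaattagatgttga
Sema3f, chr9:107583833-107583892, minus strand: atcttgctAATAAAtgctggctctgggact
Nrp1, chr8:131026650-131026709, plus strand: aactgaacccacagagtaattactcagagg
Nrp2, chr1:62865129-62865188, plus strand: tactgtgattcttcaatgtaaaaAATAAAa
Plxna2 by name, chr14:108739666-108739725, plus strand: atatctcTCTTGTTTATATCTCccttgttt
Positions are mm9, as the array annotation lists them. Of the 14 probes, 3 hold AATAAA on the printed strand (21.4%), against 12.6% of all 39429 probes of 60 bases, which describes where such probes lie and not how they respond. The probe named Plxna2 on chromosome 14 carries the run TCTTGTTTATATCTC more than once, and RefSeq (GRCm38.p6) places Plxna2 on chromosome 1. It is listed under an Ensembl transcript, which the RefSeq table does not pair with a gene, while the other 13 probes carry RefSeq accessions that matched the gene named. It is given below as a probe of that name only.

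Ratios below are log2 values, positive where RM1-MXRA7 was brighter, with 1 value per array (n = 3). In all 21803 probes cleared the background filter, which asked for signal well above background in 1 line or the other on every array, and they included 12 of the 14. Log ratios also ran smoothly along the rows of the arrays, so each probe was tested with limma both before and after a fitted surface over row and column was removed. A probe is said to have risen or fallen only where its Benjamini-Hochberg adjusted p was below 0.05 in the same direction in both fits. Mxra7 itself did not pass this rule. Its probe at chr11:116673251-116673310 had a log2 ratio of 0.31 ± 0.14 (SD, n = 3) before and -0.019 ± 0.045 after surface removal, and its other probe lay at 0.10 ± 0.04 and 0.082 ± 0.053. All directions therefore rest on the dyes given in the labels, and since no array swapped the dyes, the lines and the dyes cannot be told apart. Of the prostate luminal markers, the keratins Krt8 and Krt18 were well above background in both lines on all arrays, and the probes of Epcam, Cdh1, Pbsn and Hoxb13 were not on any. Of 7 endothelial marker probes, 3 were kept, those of Kdr, Pecam1 and Cdh5. Cdh5, a cadherin of endothelial junctions, fell. Its ratio averaged -0.87 ± 0.28 (SD, n = 3; limma adjusted p = 1.81e-06) and -0.72 ± 0.31 after surface removal (limma adjusted p = 0.00133). After normalization, with no surface removed, the summed level of the 7 was 3194 to 3354 in RM1-MXRA7 and 3864 to 4019 in RM1-VE. Most of that sum came from 1 Kdr probe, with mean log2 levels of 11.40 and 11.65. Its ratio was -0.24 before and -0.063 after surface removal (limma adjusted p = 0.458). The other Kdr probe and those of Tek, Tie1 and Cldn5 were not well above background on any array. Of 8 leukocyte probes 3 were kept, 2 of Itgam and 1 of Cd3e, and none passed in both fits. The brighter Itgam probe and the Cd3e probe were well above background in both lines on all arrays, and Ptprc was not on any. Of 6 neuron probes 2 were kept, those of Snap25 and Tubb3. The part of other cell types in the results was not tested.

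Both neuropilins and the ligands Sema3a and Sema3c were higher in RM1-MXRA7, the ligand Sema3f was lower, and none of the plexin probes passed. Of the 12 kept probes, 4 rose and 1 fell, or 41.7%, against 19.7% of all kept probes that passed in both fits (9.51% upward and 10.2% downward). Sema3a was kept through 1 line only. Among probes well above background in both lines on all arrays, 3 of 11 rose and 1 fell, or 36.4%, against 19% of 20600. Before surface removal 6 of the 12 passed upward and 1 downward, against 24.2% and 23.1% of all kept probes (47.3% together). After it 5 of the 12 passed, against 29.6%. Centring arrays on their medians in place of loess moved the median of all kept probes to -0.27. Under it 4 of the 12 passed upward and 3 downward, with 1279 of all kept probes upward and 12295 downward. The median log2 ratio of the 12 was 0.19 before and 0.15 after surface removal, beside -0.011 and 0.0063 for all kept probes. The differences were below 2-fold in every kept probe in both fits.

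**Figure D1:**
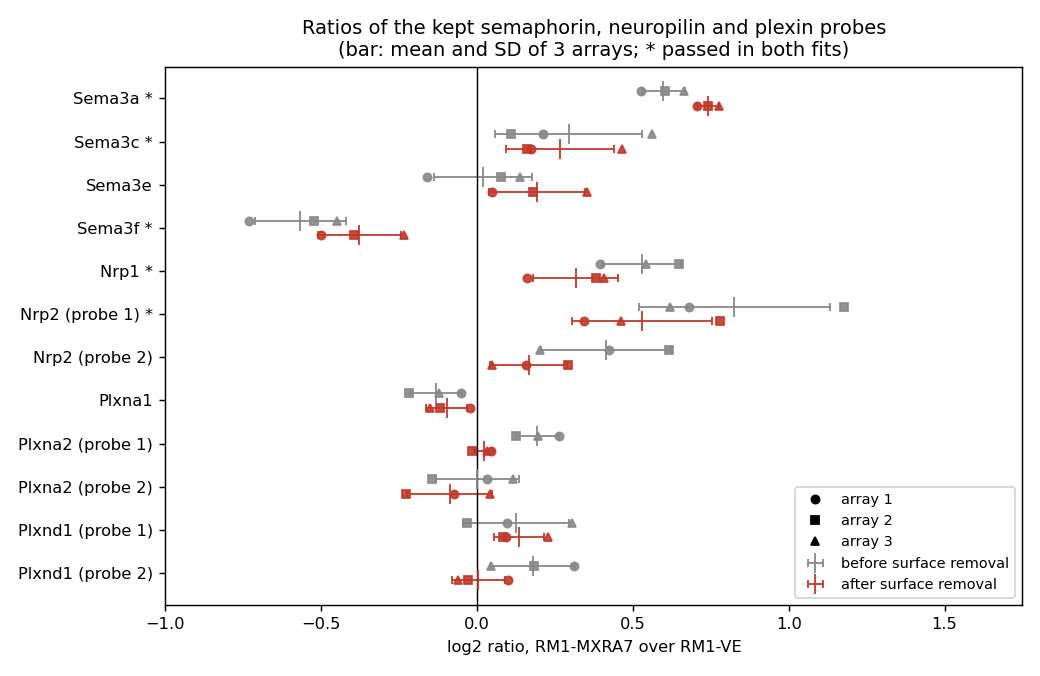
Log2 ratios of RM1-MXRA7 over RM1-VE (x axis) for the 12 kept probes (rows), with 1 symbol per array and bars for the mean and SD of 3 arrays, before (grey) and after (red) surface removal. Sema3a, Nrp1, Nrp2 probe 1 and Sema3c lie to the right of 0 on all 3 arrays and Sema3f to the left, as Nrp2 probe 2, which passed in 1 fit only, also does to the right. Plxna1 lies to the left on all arrays within 0.22 of 0, and the other plexin probes cross 0 in at least 1 fit. Probe 1 and probe 2 of Nrp2 are at chr1:62865129 and chr1:62843298, of Plxna2 on chromosomes 1 and 14, and of Plxnd1 at chr6:115904829 and chr6:115905315.

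Among the ligands, Sema3a, which binds through neuropilin-1 and repels axons, was measured by a dim probe. Its log2 level, the intensity per line after normalization, was 7.29, 7.21 and 7.23 in RM1-MXRA7 on arrays 1, 2 and 3, and 6.76, 6.60 and 6.57 in RM1-VE. Every RM1-MXRA7 value lay above every RM1-VE value. The probe was kept through RM1-MXRA7 alone, the line where it was high, since in RM1-VE it was well above background on 2 of 3 arrays only, with raw intensities of 95.0, 87.1 and 95.8 over local backgrounds of 42, 42 and 40. The ratio averaged 0.60 ± 0.07 (SD, n = 3; limma adjusted p = 1.19e-05), or 1.51-fold, and 0.74 ± 0.04 after surface removal (limma adjusted p = 3.92e-05). The fold is uncertain, since the RM1-VE level lay near background. Agilent's own processed signals, in which background subtraction, detrending and dye normalization all differ, gave log2 ratios of 1.63, 1.66 and 1.88, or 3.30-fold. A filter on both lines leaves the probe out. A probe of Sema3a 129 kb away, at chr5:13473453-13473512, was not well above background in either line on any array, so it gives no second measurement.

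Sema3c, a ligand of both neuropilins known as a growth-promoting signal in prostate cancer, rose by a smaller amount and less evenly. Its log2 level was 8.99, 9.06 and 8.46 in RM1-MXRA7 and 8.78, 8.95 and 7.90 in RM1-VE. Array 3 read low in both lines, so the lines overlap across arrays although RM1-MXRA7 was higher within each. The log2 ratios were 0.21, 0.11 and 0.56, with a mean of 0.29 ± 0.24 (SD, n = 3; limma adjusted p = 0.0116), and 0.27 ± 0.17 after surface removal (limma adjusted p = 0.0247). The call rested on array 3. Without it the ratio was 0.16 (limma adjusted p = 0.137), or 0.17 after surface removal (limma adjusted p = 0.106). With the surface removed and array 2 left out, it was 0.32 (limma adjusted p = 0.0721). Median centring gave 0.063 (limma adjusted p = 0.645). A second Sema3c probe, at chr5:17234078-17234137, was well above background on 2 of 3 arrays in each line and was not kept. Its ratios of 0.30, 0.18 and 0.20 were positive on all 3 arrays. It was tested only in a fit without the background filter and before surface removal. There 8 of 14 member probes passed, 7 upward with this probe among them.

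Sema3e, which differs from the other ligands in binding plexin D1 without a neuropilin, did not pass. It stood at log2 levels of 8.18, 8.20 and 8.14 in RM1-MXRA7 and of 8.34, 8.12 and 8.003 in RM1-VE, so the lines overlapped. The log2 ratio was 0.018 ± 0.158 (SD, n = 3; limma adjusted p = 0.866) and 0.19 ± 0.15 after surface removal (limma adjusted p = 0.0644).

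Sema3f, which signals mainly through neuropilin-2 and is known to restrain tumour growth and vessels, was the ligand that fell. Log2 levels were 10.48, 10.55 and 10.40 in RM1-MXRA7 and 11.21, 11.07 and 10.85 in RM1-VE. The highest RM1-MXRA7 value lay below the lowest RM1-VE value. The log2 ratios were -0.73, -0.52 and -0.45, with a mean of -0.57 ± 0.15 (SD, n = 3; limma adjusted p = 3.46e-05). That made the level in RM1-MXRA7 lower by 1.48-fold. After surface removal the mean was -0.38 ± 0.13 (limma adjusted p = 0.00371), or 1.299-fold lower, and it passed with each array left out in turn, in both fits. The surface fitted at this spot was -0.19, and Agilent's processed signals gave -0.40.

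Both neuropilin genes rose. Nrp1, the receptor of Sema3a that also binds vascular endothelial growth factor A, had a log2 level of 7.34, 7.96 and 7.76 in RM1-MXRA7 and of 6.95, 7.31 and 7.21 in RM1-VE. The groups did not overlap, by a narrow margin, and RM1-MXRA7 was higher within every array. The log2 ratio was 0.53 ± 0.13 (SD, n = 3; limma adjusted p = 5.70e-05), or 1.44-fold higher. It was 0.32 ± 0.14 after surface removal (limma adjusted p = 0.00842), or 1.25-fold. The probe was dim in RM1-VE, with raw intensities of 108.6, 161.4 and 164.5 over local backgrounds of 40, and Agilent's processed signals gave 0.62. With the surface removed and array 2 left out, the call ended (0.28; limma adjusted p = 0.0885).

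Nrp2, the receptor preferred by Sema3f, was measured by probes listed for different transcript variants. The probe listed for transcript variant 1, at chr1:62865129-62865188, had a log2 level of 11.45, 11.98 and 11.50 in RM1-MXRA7 and of 10.77, 10.80 and 10.88 in RM1-VE. The lowest RM1-MXRA7 value lay above the highest RM1-VE value. Its log2 ratios were 0.68, 1.18 and 0.62, with a mean of 0.83 ± 0.31 (SD, n = 3; limma adjusted p = 4.84e-06), or 1.77-fold higher. After surface removal they were 0.34, 0.78 and 0.46, with a mean of 0.53 ± 0.22 (limma adjusted p = 0.00230), or 1.44-fold. In both fits the highest value was that of array 2, and the probe still passed with any 1 array left out.

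The Nrp2 probe listed for transcript variant 5, at chr1:62843298-62843357, 21.8 kb upstream, did not pass in both fits. Its log2 level was 8.28, 8.85 and 8.32 in RM1-MXRA7 and 7.86, 8.23 and 8.12 in RM1-VE. Its log2 ratio was 0.41 ± 0.21 (SD, n = 3; limma adjusted p = 0.000908) before and 0.17 ± 0.12 after surface removal (limma adjusted p = 0.0802). Within each array it lay below the variant 1 probe, by 0.19, 0.49 and 0.42 with the surface removed. Whether the transcript variants differ in response was not tested.

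**Figure D2:**
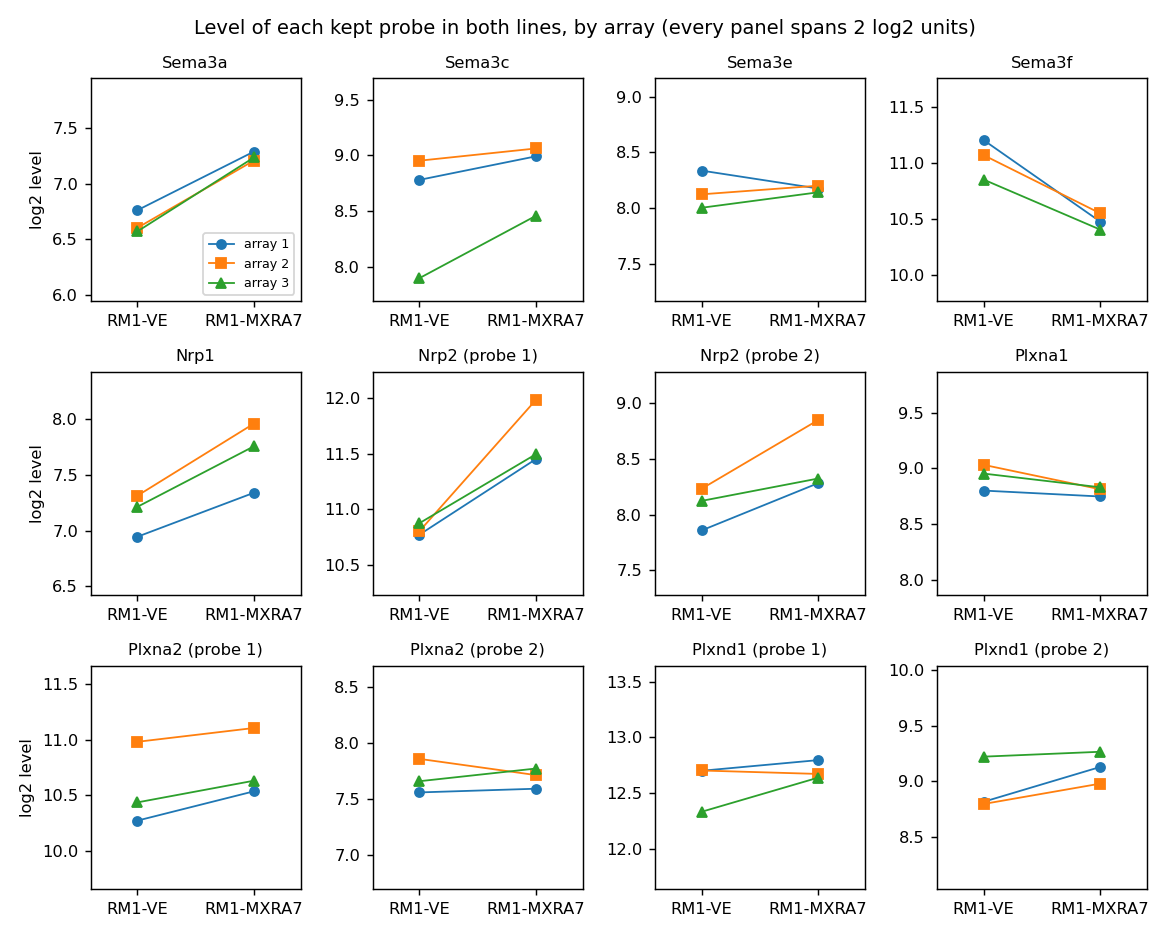
Log2 level (y axis) of each kept probe in RM1-VE and RM1-MXRA7, with 1 line per array and every panel spanning 2 log2 units. The lines climb on all arrays for Sema3a, Sema3c, Nrp1 and both Nrp2 probes and drop on all arrays for Sema3f. They also climb for Plxna2 probe 1 and Plxnd1 probe 2 and drop for Plxna1, and for Sema3c array 3 sits below arrays 1 and 2 in both cell lines.

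None of the 5 kept plexin probes passed in both fits, against 19.7% of all kept probes, and for each of the 5 the levels of the lines overlapped. The 5 include the chromosome 14 probe named Plxna2, and so few probes say little about a share. Non-overlap held for 5 of the 12 kept probes, against 37.3% of all kept probes. Plxna1, a signalling partner of both neuropilins, had log2 levels of 8.75, 8.81 and 8.83 in RM1-MXRA7 and of 8.80, 9.03 and 8.95 in RM1-VE. The file gives its position as chr6:89266290-89266322, shorter than the probe. Its log2 ratio was -0.13 ± 0.08 (SD, n = 3; limma adjusted p = 0.164) and -0.098 ± 0.067 after surface removal (limma adjusted p = 0.224).

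Plxna2, a plexin of the same subfamily, passed before surface removal only. Its probe at chr1:196642958-196643017 had log2 levels of 10.54, 11.11 and 10.63 in RM1-MXRA7 and of 10.27, 10.98 and 10.44 in RM1-VE, where array 2 read high in both lines. Before surface removal it was at 0.19 ± 0.07 (SD, n = 3; limma adjusted p = 0.0438), and it was at 0.021 ± 0.032 after surface removal (limma adjusted p = 0.797). The surface fitted at that spot was 0.17. The probe on chromosome 14 that carries the same name lay at 0.0005 ± 0.1329 before and -0.087 ± 0.136 after surface removal.

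Plxnd1, the direct receptor of Sema3e and a gene well known from vessel patterning, was measured by probes 0.486 kb apart on chromosome 6. The probe at chr6:115904829-115904888 had log2 levels of 12.80, 12.67 and 12.64 in RM1-MXRA7 and of 12.70, 12.70 and 12.33 in RM1-VE. Its log2 ratio was 0.12 ± 0.17 (SD, n = 3; limma adjusted p = 0.223) and 0.13 ± 0.08 after surface removal. The probe at chr6:115905315-115905374 lay at 0.18 ± 0.13 before (limma adjusted p = 0.0704) and 0.0038 ± 0.0845 after surface removal. Neither Plxnd1 probe passed in either fit, and a p above the threshold does not show that the lines had equal levels. Under median centring, where all values shift down, Plxna1 was -0.37 (limma adjusted p = 0.00308) and the first Plxnd1 probe -0.29 (limma adjusted p = 0.0267), beside the shifted median of -0.27.

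The rest of the pathway was read from a list of other semaphorins, plexins, co-receptors, growth factor ligands, processing enzymes and signalling partners. It held 114 probes of 75 genes, of which 84 probes of 61 genes were kept. Of these, 14 probes rose and 9 fell in both fits, or 27.4%, against the 19.7% of all kept probes. Before surface removal 24 passed upward and 18 downward, and under median centring 3 and 42. The median log2 ratio was 0.0045 before and 0.043 after surface removal.

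Among the remaining class 3 ligands, Sema3b fell. Levels on the log2 scale ran from 6.82 to 6.97 in RM1-MXRA7 and from 7.53 to 8.05 in RM1-VE, with no overlap. The log2 ratio was -0.96 ± 0.22 (SD, n = 3; limma adjusted p = 2.33e-07), or 1.95-fold lower, and -0.96 ± 0.17 after surface removal. The fold is uncertain, since raw intensities in RM1-MXRA7 were 113.4, 110.3 and 118.5 over local backgrounds of 47, 46.5 and 46. Agilent's processed signals gave -1.50, or 2.84-fold lower. Sema3b, like Sema3f, is known as a candidate tumour suppressor gene. Sema3g passed before surface removal only, at -0.29 and then -0.14 (limma adjusted p = 0.105), and Sema3d was not kept.

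Of 12 kept probes of the membrane-bound and other semaphorins, 3 fell and none rose in both fits, or 25%. Among all kept probes 19.7% passed in both fits, and 10.2% of all kept probes passed downward. The log2 ratio of Sema6d was -0.56 ± 0.06 (SD, n = 3) and -0.67 ± 0.04 after surface removal, although its other kept probe lay at 0.019 and 0.20. Sema4a, a semaphorin of immune cells, lay at -0.54 and -0.38. Sema4c, the ligand of plexin B2, lay at -0.22 and at -0.62 after surface removal. None of the 3 kept probes of other plexins passed in both fits, with Plxna3 at 0.335 and 0.092, Plxnb2 at -0.19 and -0.18 and Plxnb3 at 0.12 and 0.25.

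The growth factors that share the neuropilins did not move as 1 group. Vegfc, a ligand of neuropilin-2 that drives lymphatic growth, rose by 0.50 ± 0.22 (SD, n = 3; limma adjusted p = 0.000197) and by 0.60 ± 0.15 after surface removal. It stood at log2 levels of 11.98, 12.33 and 12.28 in RM1-MXRA7 and 11.59, 11.96 and 11.53 in RM1-VE. Figf, which encodes the related factor D, rose by 0.22 and by 0.21. Vegfa, the main ligand of neuropilin-1 in vessels, did not pass in both fits on either probe, with 0.24 and -0.38 before and 0.0063 and -0.18 after surface removal. Of 5 kept co-receptor probes 1 rose, or 20%, near the 19.7% of all kept probes that passed in both fits. It was a probe of Flt1 at 0.29 and 0.34, while the other kept Flt1 probe lay at -0.14 and -0.16. Kdr lay at -0.24 and -0.063 and did not pass in both fits.

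Furin, a convertase that cuts class 3 semaphorins, rose by 0.54 ± 0.23 (SD, n = 3; limma adjusted p = 0.000109), and by 0.34 ± 0.12 after surface removal. Of 53 kept probes of signalling partners, 10 rose and 5 fell, or 28.3%, against 19.7% of all kept probes. The 10 include a Mical3 probe that was kept through RM1-MXRA7 alone. The largest ratio among the signalling partners was that of Crmp1, a collapsin response mediator protein gene, named for the response of neurons to Sema3a. Its log2 level was 10.45, 10.32 and 10.51 in RM1-MXRA7 and 9.07, 8.57 and 9.04 in RM1-VE. The gap between the lines exceeded 1 on the log2 scale on every array. The log2 ratio was 1.53 ± 0.19 (SD, n = 3; limma adjusted p = 2.72e-10), or 2.90-fold, and 1.281 ± 0.170 after surface removal (limma adjusted p = 7.14e-06), or 2.43-fold.

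Other members of that family differed from Crmp1. Dpysl5 had a log2 ratio of -0.44 and -0.52 after surface removal, and fell. Dpysl2 lay at -0.12 and -0.018 and did not pass. Of the Dpysl3 probes, 1 rose, at 0.35 and 0.32, and the other lay at 0.023 and 0.25 and did not pass in both fits.

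Among kinases and GTPases, the Src family kinase gene Fyn, which acts below plexin A, rose by 0.47 ± 0.15 (SD, n = 3) and by 0.44 ± 0.07 after surface removal. Cdk5 rose by 0.33 and 0.23 and 1 of its activator's probes, of Cdk5r1, by 0.34 and 0.26. The other Cdk5r1 probe lay at 0.31 and 0.082 and did not pass in both fits. Nedd9 rose by 0.47 and 0.38, Pak1 by 0.34 and 0.25, and Arhgef12 by 0.48 and 0.24. Mras rose on 1 probe, by 0.45 and 0.20, and its other kept probe lay at -0.031 and 0.13. Rhoa fell on 1 probe, at -0.40 and -0.24, and its other probe lay at -0.087 and 0.12. Rnd1, a GTPase that binds plexin A and opens it for activity, fell on both of its probes, with log2 ratios of -0.63 ± 0.46 and -0.53 ± 0.21 (SD, n = 3), and -0.77 and -0.52 after surface removal. On the first of these probes array 1 gave -0.10, against -0.94 and -0.85 on arrays 2 and 3. Mical3, which oxidises actin, fell on 1 probe, at -0.43 and -0.23. Another Mical3 probe passed upward, at 0.29 and 0.22, but was kept through RM1-MXRA7 alone, the line where it was high. In RM1-VE that probe was well above background on 2 of 3 arrays only, so the disagreement between the probes is uncertain.

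**Figure D3:**
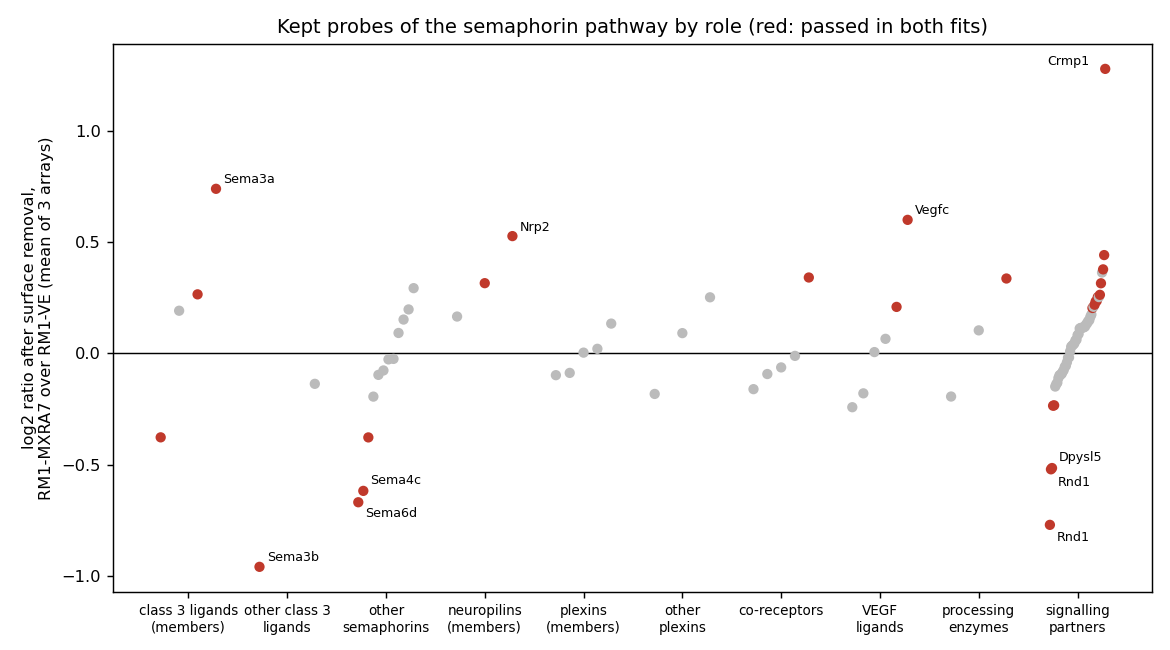
Mean log2 ratio after surface removal (y axis) of every kept probe, by role in the pathway (x axis), with probes that passed in both fits in red and others in grey. Crmp1 at 1.281 is the highest point and Sema3b at -0.96 the lowest, and no plexin probe is red.

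The class 3 genes also share positions. The Sema3a, Sema3e and Sema3c probes lie within 3.63 Mb on chromosome 5, and those of Sema3b and Sema3f lie 83.1 kb apart on chromosome 9. Both stretches were singled out after their values were seen. Between 13000000 and 18000000 on chromosome 5, 11 other probes were kept, of which 2 rose and 0 fell in both fits, or 18.2%, close to the 19.7% of all kept probes. Their median log2 ratio after surface removal was 0.13. The 2 that rose were both probes of the calcium channel gene Cacna2d1, at 0.34 and, the highest of the 11, 0.40. These values lay below the 0.74 of Sema3a but above the 0.27 of Sema3c and the 0.19 of Sema3e.

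Between 107000000 and 108000000 on chromosome 9, 33 other probes were kept. Of these 1 rose and 3 fell, or 12.1%, against 19.7% of all kept probes. Their median was -0.059. Gnai2, whose probe lies between those of Sema3b and Sema3f, had a ratio of 0.048 after surface removal, and Ifrd2, on the other side of Sema3b, had -0.27. The lowest values in that stretch were those of both Mst1 probes, at -1.66 and -1.59, 403.4 kb from Sema3f. Both are among the 3 that fell, and their listed positions overlap, so they are close to 1 measurement.

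**Figure D4:**
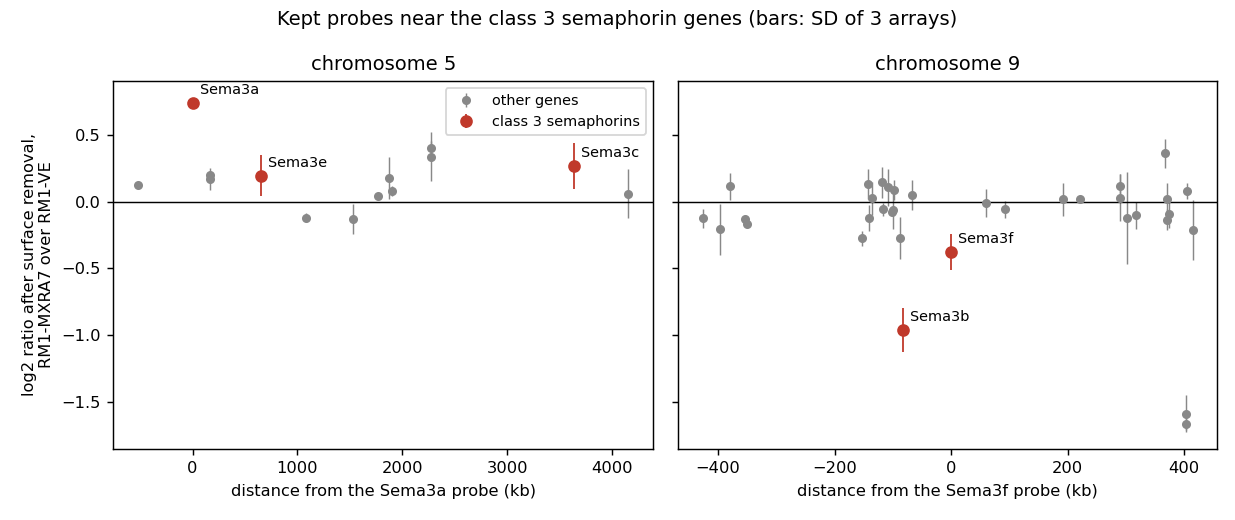
Mean log2 ratio after surface removal (y axis, bars show the SD of 3 arrays) against distance in kb from the Sema3a probe (left, chromosome 5) or the Sema3f probe (right, chromosome 9), for all kept probes of each stretch. Class 3 semaphorins are red, with Sema3a highest on the left, and Sema3b and Sema3f below most of their neighbours on the right, where the 2 lowest grey points are Mst1.

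The gene symbols whose kept probes were most like that of Sema3a, the called probe with the largest ratio after surface removal, were Usp18, Tor1aip2 and Ptgr1. Likeness was the root-mean-square difference over the log2 ratios of the 3 arrays, which was 0.026, 0.032 and 0.035. Usp18 lay at 0.68, 0.73 and 0.815, beside 0.70, 0.74 and 0.78 for Sema3a. With 3 points per probe, such closeness describes size and evenness and no more.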

How the data were processed

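Per the file headers and the submitters' processing notes, the authors deposited the output of Agilent Feature Extraction (10.7.1.1), with mean and background intensities per spot in both channels and an intensity that the software had background-subtracted, detrended and dye-normalized. The authors also deposited a table with 1 linear ratio for each probe and array. Set against the scanner output, these ratios were Cy3 over Cy5 of the processed intensity (100% of values within 1%), uncentred, with medians of 1.02, 1.03 and 0.972.

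Starting from the raw intensities, limma 3.58.1 (R 4.3.3) applied normexp with an offset of 50, then loess inside each array with control spots at weight 0. Spots with outlier flags were left out and spots of 1 probe averaged. The background filter kept a probe with over 50% of its spots well above background in 1 channel or the other on each of the 3 arrays. Levels per line are log2 values after loess and Aquantile. Log2 ratios went through lmFit and eBayes, tested against 0, over 21803 probes (15.2 prior and 2 residual degrees of freedom before surface removal, 6.67 prior after it). The surface, polynomials of degree 4 in row and column alone and times intensity, was fitted by least squares on spots of kept probes and accounted for 34.5% of the variance on array 1, 33.7% on array 2 and 25.5% on array 3. All arrays lay on 1 slide.

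Per channel and array, 21787 to 24181 of all probes were well above background, and the number of arrays limits the precision. On simulated ratios of 21791 probes for this comparison, limma recovered 100% of 100 changes of 0.5 and 100% of 100 changes of 1 on the log2 scale, with 17 false calls. The noise was drawn independently for each probe around the median SD after surface removal, with no surface added and 1 fit. Changes smaller than 0.5 were not simulated. Sema3c, Nrp1 and Sema3f had such changes after surface removal, so the recovery does not speak for them or for the rule of both fits.

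Named are Mxra7, all member probes, the pathway genes that passed in both fits, and the 3 symbols most like the strongest member. The plan was to name pathway genes with a ratio of at least 0.5 and up to 4 others per role by smallest adjusted p. Among the signalling partners, Dpysl5, Rhoa, Pak1, Cdk5r1 and Cdk5 went beyond that limit of 4. Plxna3, Kdr, Vegfa, Sema3g, Sema3d, Dpysl2, Dpysl3, Plxnb2, Plxnb3, Mical3 and the neighbouring genes were added after their values were seen. The members, lists and tests were chosen with earlier results of these data known. Each array pairs the lines, so its ratio holds the pairing. Some luminal markers of the list are not reported here.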

Additional observations from a re-analysis of the deposited data

How the results depend on the processing

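Over 19 alternatives, the 12 kept member probes gave 224 values, of which 172 kept direction and side of the threshold, 27 no longer passed, 3 newly passed and 22 changed sign. The alternatives were not independent, so these counts overstate agreement. Other filters, 1 probe per gene, other eBayes options and single channels kept the same log2 ratio, so direction could not change there. The deposited ratios repeated the processed signals. The variant 1 probe of Nrp2 and Sema3f passed in all 19. Sema3a passed in 18, and the filter on both channels dropped it and left 11 member probes. Sema3a, that Nrp2 probe and Sema3f had ranges of 0.57 to 1.77, 0.40 to 0.93 and -0.90 to -0.32. Causes were not tested.

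Counts that moved by over 1.5 times were those of all kept probes, at 6453 after surface removal, 5123 with Agilent's processed signals, 5102 with the deposited ratios and 5250 with processed signals and surface removed. The last of these, and a surface fitted on all spots, were chosen after seeing the data. Passing pathway probes numbered 24 in each of those settings on processed signals or deposited ratios. Each array pairs the lines, so a fit of single channels with the replicate block gave the same 10322 calls, and without the replicate block 2715 of all probes, 16 pathway probes and 3 members passed, with Mxra7 at 0.3097 (limma adjusted p = 0.146) and Nrp1 not passing (limma adjusted p = 0.0831). Leaving out 1 array in turn gave 6526 (without array 2) to 9315 of all probes. With the surface also removed it gave 2346 without array 2 and 5600 without array 3 of all probes, and 13 pathway probes and 3 members without array 2.

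The first Mxra7 probe lay at -0.019 after surface removal, -0.0344 with processed signals and with deposited ratios, -0.0231 with median centring, 0.0069 with the surface of all spots and -0.0771 with processed signals and surface removed. It ran from 0.2693 to 0.3895 with 1 array left out, not passing at 0.2703 without array 2, and from -0.0445 to -0.0034, through -0.009, with the surface removed and 1 array left out. The other Mxra7 probe was -0.0297 with median centring.

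The chromosome 14 probe of Plxna2 turned negative in most settings. It was -0.0874 after surface removal, -0.0928 with processed signals and deposited ratios, -0.0138 with no background correction, -0.1417 with median centring, -0.0573 with the surface of all spots and -0.0775 with processed signals and surface removed. Without 1 array it was -0.0563 to 0.0736, with -0.0159 without array 1, and -0.1523 to -0.0164, through -0.0934, with the surface also removed. The Plxnd1 probe at chr6:115905315 was -0.0038 with processed signals and deposited ratios, -0.0209 with processed signals and surface removed and -0.0441 with the surface removed and array 1 left out. Median centring gave -0.0701 for it, -0.2874 for the other Plxnd1 probe, -0.1328 for the chromosome 1 probe of Plxna2 and -0.1701 for Sema3e. With 1 array left out, Sema3e ran from -0.0417 to 0.108, with -0.0111 without array 2.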
